A study of Homo sapiens with 4 samples.

Results

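The genes described here encode the kinases of the DNA damage checkpoint and the ring-shaped clamp that switches part of it on: ATM, ATR and its partner ATRIP, the downstream kinases CHEK1 and CHEK2, the ATR activator TOPBP1, the clamp subunits RAD9A, RAD1 and HUS1, and the clamp loader subunit RAD17. These 10 genes were chosen by name, from 17144 genes that had a probe set with a single gene symbol. Earlier results of these data were known when they were chosen. A probe set is a group of array probes read out as 1 value. Of the 10 genes, 8 had at least 1 probe set of their own, and for each the one with the highest mean over all arrays stands for the gene. ATRIP and RAD9A were listed only together with another gene.

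The study exposed WM35, a line of human melanoma cells from the radial growth phase, to C646, a small-molecule inhibitor of the acetyltransferases p300 and CBP. The 4 groups were C646 at 20 µM for 6 h, its solvent DMSO at 0.2% for 6 h, C646 at 20 µM for 24 h and DMSO at 0.2% for 24 h, in WM35 cells of no stated genetic modification. Each group was measured on 1 array (Affymetrix Human Exon 1.0 ST), so a difference between C646 and DMSO sets a single array against a single array. Values are log2 expression, and differences are C646 minus DMSO on that scale unless another subtraction is named.

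In cells, broken DNA ends activate the kinase ATM, which phosphorylates CHEK2. Single-stranded DNA at stalled replication forks is coated by RPA and recruits ATR through ATRIP. RAD17 with small RFC subunits loads the RAD9A, RAD1 and HUS1 clamp, called 9-1-1, next to that DNA. The clamp brings in TOPBP1, TOPBP1 activates ATR, and ATR phosphorylates CHEK1 with the help of CLSPN. CHEK1 and CHEK2 then restrain the CDC25 phosphatases and delay the cell cycle. These enzymes are controlled largely by phosphorylation, which an mRNA array does not measure.

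After 24 h of C646, CHEK1 mRNA was 2.47-fold lower than in DMSO, TOPBP1 1.69-fold lower, RAD1 1.52-fold lower and CHEK2 1.32-fold lower. RAD17 was 1.37-fold higher, ATR 1.12-fold and HUS1 1.09-fold higher, and ATM was at 0.98 times the DMSO value. At 6 h the order was different: CHEK1 was at 0.78 times DMSO, ATR was at 1.22 times DMSO, and the other 6 genes lay between 0.92 and 1.05 times DMSO. Among these 8 values only that of CHEK1 reached a 2-fold difference, and only at 24 h.

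The promoter windows of CHEK1 and TOPBP1, the members with the largest differences, are shown with the motif matches that a search found in them. They come from RefSeq, build GRCh38.p14, 250 bases before to 50 bases after a listed start site, 5′ to 3′ on the gene's strand. The CHEK1 window is chr11:125625979-125626278 on the plus strand, the first of 3 listed starts. The TOPBP1 window is chr3:133661892-133662191 on the minus strand. Capitals mark a CCAAT box, read as ATTGG on the opposite strand, in CHEK1 and an E2F-type match in TOPBP1.
CHEK1: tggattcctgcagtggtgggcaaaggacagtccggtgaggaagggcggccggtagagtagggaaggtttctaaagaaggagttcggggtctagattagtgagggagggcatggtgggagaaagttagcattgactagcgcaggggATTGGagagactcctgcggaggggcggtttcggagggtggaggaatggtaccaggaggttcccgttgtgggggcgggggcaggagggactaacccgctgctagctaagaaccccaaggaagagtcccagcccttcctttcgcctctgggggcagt
TOPBP1: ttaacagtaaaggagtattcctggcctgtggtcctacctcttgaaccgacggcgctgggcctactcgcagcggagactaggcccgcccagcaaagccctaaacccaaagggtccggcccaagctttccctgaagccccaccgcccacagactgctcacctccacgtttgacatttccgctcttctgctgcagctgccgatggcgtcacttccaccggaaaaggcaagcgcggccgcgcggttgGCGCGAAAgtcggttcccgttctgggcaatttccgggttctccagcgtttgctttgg

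The search covered 3 motifs on both strands in the windows of the 9 members that the table held, HUS1 being the one it did not. The motifs were E2F-type (TTTCCCGC, TTTCGCGC, TTTGCCGC or TTTGGCGC), the cell cycle homology region (TTTGAA) and CCAAT, and none of them contains another. These 9 members have 15 listed windows in all, and shares are of windows. The E2F-type letters were in 1 of the 15, that of TOPBP1, as GCGCGAAA at position -7 counted from the start site as 0, against 3.31% of all 35116 windows. The TTTGAA letters were in 2 of the 15, of ATM and RAD17, against 15.2% of all windows. CCAAT was in 11 of the 15, from 6 members (ATM, ATRIP, CHEK1, CHEK2, RAD17 and RAD9A), against 34.6% of all windows. The windows of CHEK1 overlap one another, as do those of ATM. The same CCAAT match of CHEK1 is therefore counted in more than 1 window, and the 11 are not separate matches. In CHEK1 the CCAAT match lay at -105 in the window shown. A match describes the letters of the window and is not evidence of binding.

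CHEK1 encodes the kinase that carries the ATR signal to the cell cycle machinery, and it had the largest difference of the 8 genes at both times. Its probe set (3354799) read 7.45 with C646 and 7.81 with DMSO at 6 h, and 6.50 with C646 and 7.80 with DMSO at 24 h. Both DMSO arrays lay within 0.01 of each other, the C646 array of 6 h lay below both, and the C646 array of 24 h lay lowest. The C646 minus DMSO difference was -0.37 at 6 h and -1.31 at 24 h, while DMSO at 24 h minus DMSO at 6 h was -0.0093. Among 10707 named genes above the level filter, a mean over the arrays of at least 3.96 (the 40th percentile of all probe sets), 383 had a lower difference than CHEK1 at 6 h and 224 at 24 h. These arrays measured RNA of whole cultures, in which fewer cells of a kind and less RNA per cell cannot be told apart.

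CHEK2, the kinase activated by ATM, was read by 3 probe sets of its own symbol. The one with the highest mean (3582922) read 4.89 with C646 and 4.82 with DMSO at 6 h, and 4.33 with C646 and 4.73 with DMSO at 24 h. The C646 array of 24 h was the lowest, and the other arrays lay close together. The differences were 0.067 at 6 h and -0.40 at 24 h, against -0.094 between the DMSO arrays. This probe set is numbered among those of other chromosomes, most often chromosome 14, whereas CHEK2 lies on chromosome 22, and CHEK2 is known to have pseudogene copies elsewhere in the genome, so its value for the gene itself is uncertain.

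The CHEK2 probe set numbered among genes of chromosome 22 and of the CHEK2 strand (3956433) read 4.60 with C646 and 4.69 with DMSO at 6 h, and 4.10 with C646 and 4.65 with DMSO at 24 h. Its differences were -0.085 and -0.55. A further probe set of CHEK2 (3935862), numbered where 42.5% of its neighbours lie on chromosome 22, on the opposite strand, was at -0.0046 and -1.02. It was also the least steady between the vehicle arrays, with DMSO at 24 h minus DMSO at 6 h at 0.43. All 3 were lower with C646 at 24 h, with differences from -0.40 to -1.02. Probe set 3935862 read 3.66 with C646 and 4.67 with DMSO at 24 h. The C646 value lies under the level filter, so the size of its difference is uncertain. Of the 3, only 3956433 is numbered with both the chromosome and the strand of CHEK2. The probe set that lists HSCB with CHEK2 and is numbered on the strand of HSCB (3941623) was at -0.013 and -0.15.

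ATR encodes the kinase that responds to stalled forks. Its probe set (2698844) read 5.62 with C646 and 5.33 with DMSO at 6 h, and 5.32 with C646 and 5.15 with DMSO at 24 h. At each time the C646 array was the higher one, but the C646 array of 24 h lay below the DMSO array of 6 h. The differences were 0.29 and 0.16, and the DMSO arrays differed by -0.18, so the difference at 24 h was no larger than that between vehicle arrays. At 6 h, 93.6% of the named genes had a lower difference than ATR.

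ATM, the kinase activated at double-strand breaks, had only 1 probe set of its own symbol (3002275), and it is numbered among those of chromosome 7, whereas ATM lies on chromosome 11. It read 4.36 with C646 and 4.40 with DMSO at 6 h, and 4.30 with C646 and 4.33 with DMSO at 24 h. The 4 arrays spanned 0.10, and the differences of -0.041 and -0.032 were smaller than the -0.072 between the DMSO arrays. Whether this probe set reads the ATM transcript is uncertain.

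Further probe sets list ATM with a neighbouring gene. The one that lists ATM and NPAT and is numbered among plus-strand genes of chromosome 11, the strand of ATM and not of NPAT (3347658), read 7.40 with C646 and 7.41 with DMSO at 6 h, and 7.50 with C646 and 7.36 with DMSO at 24 h. Its differences were -0.010 and 0.15. The one numbered among minus-strand genes, the strand of NPAT (3390067), was at -0.093 and -0.32. NPAT encodes a coactivator of histone genes. A probe set that lists C11orf65 and ATM (3390143) had a mean of 3.66, under the level filter, and was not tested.

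ATRIP, the partner that brings ATR to RPA-coated DNA, was listed together with TREX1, an exonuclease gene on the same strand, so its value cannot be assigned to either gene. The shared probe set (2621705) read 5.81 with C646 and 5.71 with DMSO at 6 h, and 5.27 with C646 and 5.67 with DMSO at 24 h. The C646 array of 24 h was the lowest, with a difference of -0.40 after 0.10 at 6 h.

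**Figure D1:**
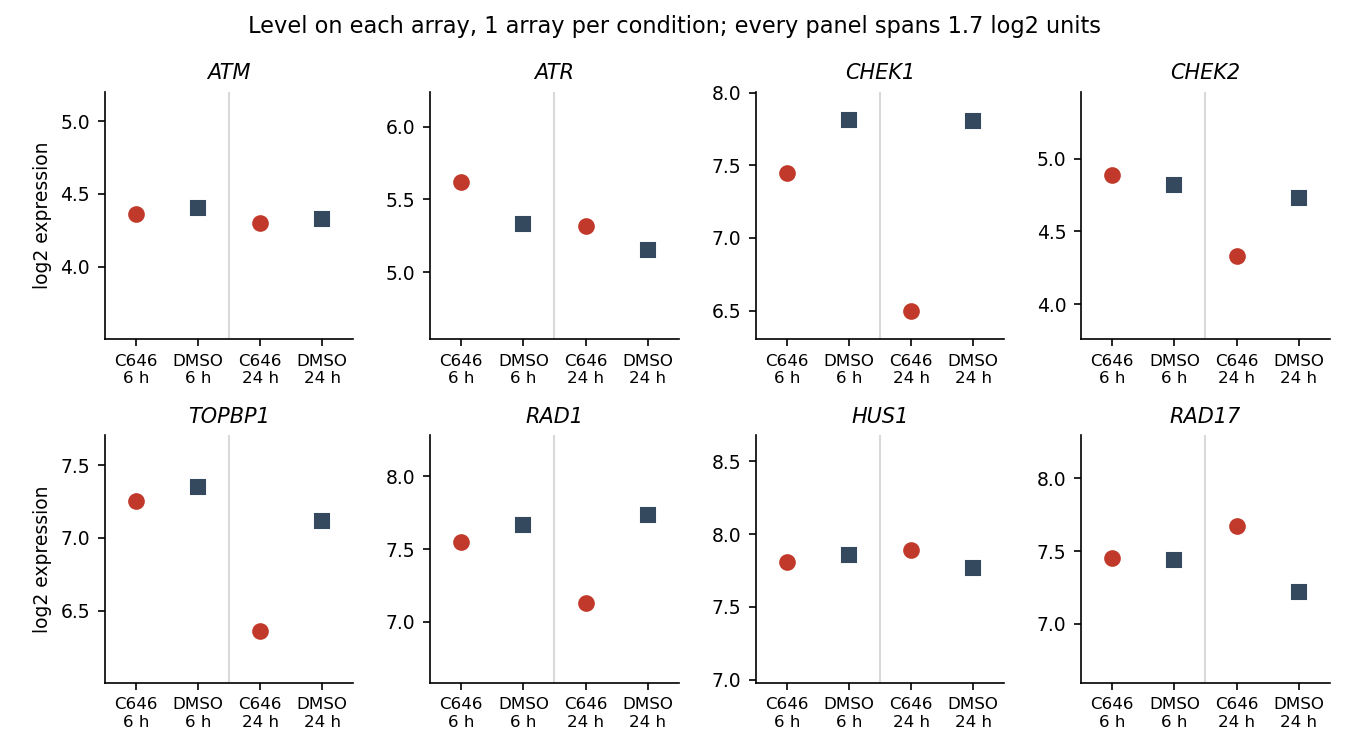
Log2 expression on each of the 4 arrays for the 8 genes with a probe set of their own, with C646 as red circles and DMSO as dark squares, 1 array per condition. CHEK1, CHEK2, TOPBP1 and RAD1 are lowest with C646 at 24 h (CHEK1 at 6.50), RAD17 is highest there (7.67), and ATM and HUS1 stay nearly level.

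TOPBP1, which activates ATR at the clamp, read 7.25 with C646 and 7.35 with DMSO at 6 h, and 6.36 with C646 and 7.12 with DMSO at 24 h (probe set 2695941). The C646 array of 24 h lay well below the other arrays. The differences were -0.096 and -0.76, and DMSO at 24 h minus DMSO at 6 h was -0.24.

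RAD1, a subunit of the clamp, had 2 probe sets of its own symbol that gave nearly the same difference. The one with the higher mean (3267306), numbered among those of chromosome 10 although RAD1 lies on chromosome 5, read 7.55 with C646 and 7.67 with DMSO at 6 h, and 7.13 with C646 and 7.73 with DMSO at 24 h. The other (2852989), numbered among genes of the chromosome and strand of RAD1, read 6.05 with C646 and 6.08 with DMSO at 6 h, and 5.42 with C646 and 5.97 with DMSO at 24 h. In both, the C646 array of 24 h was the lowest. At 24 h the differences were -0.60 and -0.56, after -0.12 and -0.023 at 6 h. The probe set that lists BRIX1 with RAD1 and is numbered on the strand of BRIX1 was at -0.13 at both times.

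HUS1, another clamp subunit, read 7.81 with C646 and 7.86 with DMSO at 6 h, and 7.89 with C646 and 7.76 with DMSO at 24 h (probe set 3049840). The arrays spanned 0.13 in all. The differences were -0.050 and 0.13, and the DMSO arrays differed by -0.092. RAD9A, the remaining subunit, was listed together with LOC100130987. Their shared probe set (3336951) read 4.96 with C646 and 4.83 with DMSO at 6 h, and 4.65 with C646 and 4.78 with DMSO at 24 h, with differences of 0.13 and -0.13. Among the probe sets of the clamp, the 24 h differences thus ran from -0.60 for RAD1 to 0.13 for HUS1.

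RAD17, the loader subunit specific to the clamp, was the gene with the highest difference at 24 h. Its probe set (2813524) read 7.45 with C646 and 7.44 with DMSO at 6 h, and 7.67 with C646 and 7.22 with DMSO at 24 h. The C646 array of 24 h was the highest and the DMSO array of the same time was the lowest. The difference was 0.45 at 24 h after 0.016 at 6 h, and the DMSO arrays differed by -0.22. A second RAD17 probe set (3039855), numbered among those of chromosome 7, was at -0.037 and 0.16.

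**Figure D2:**
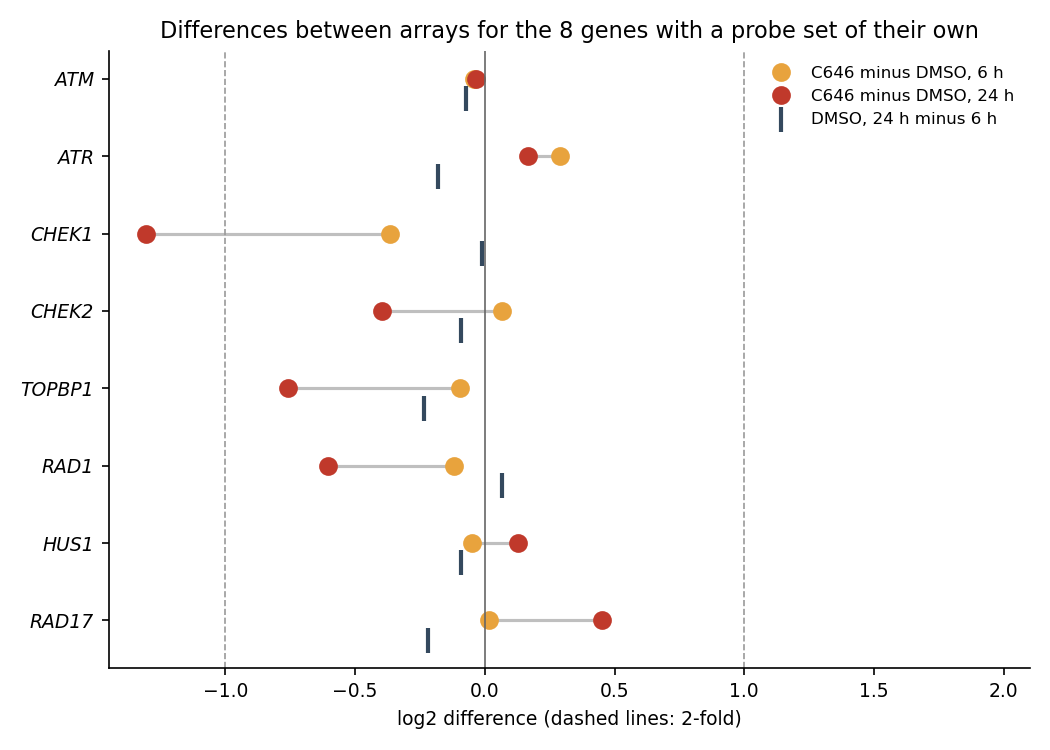
Log2 differences for the 8 genes, with C646 minus DMSO at 6 h in yellow, at 24 h in red, and DMSO at 24 h minus DMSO at 6 h as a dark tick. CHEK1 passes the dashed 2-fold line at 24 h (-1.31), and ATM and ATR differ by no more at 24 h than the DMSO arrays do (-0.032 and 0.16).

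Among all 10707 named genes, 3.85% differed at least 2-fold at 24 h, and 1 of the 8 members did. For lower values alone the share was 2.88%. At 6 h 0.205% of named genes and 0 of the 8 members were past 2-fold. Between the DMSO arrays it was 0.112% and 0 of the 8. With a single array per group these counts come with no p-value. The members' median difference was -0.046 at 6 h and -0.22 at 24 h, against 0.0029 and 0.030 over all named genes. At 24 h 5 of the 8 lay below 0, where 44.9% of all named genes did.

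The downstream kinases were then set against the upstream kinases by their differences, since levels of different probe sets are not comparable. At 6 h CHEK1 and CHEK2 averaged -0.15 and ATM and ATR averaged 0.12, a gap of -0.27. At 24 h the downstream pair averaged -0.85 and the upstream pair 0.066, a gap of -0.92. The gap at 24 h rested mostly on CHEK1, and it was -1.09 with probe sets numbered among each gene's own chromosome, which leaves ATR alone on the upstream side. With probe sets of each gene's own chromosome and strand, shared ones included, it was -1.08, and there ATM was read by the probe set shared with NPAT (3347658) and CHEK2 by the one of its own strand (3956433). This gap is a description over single arrays and was not tested.

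**Figure D3:**
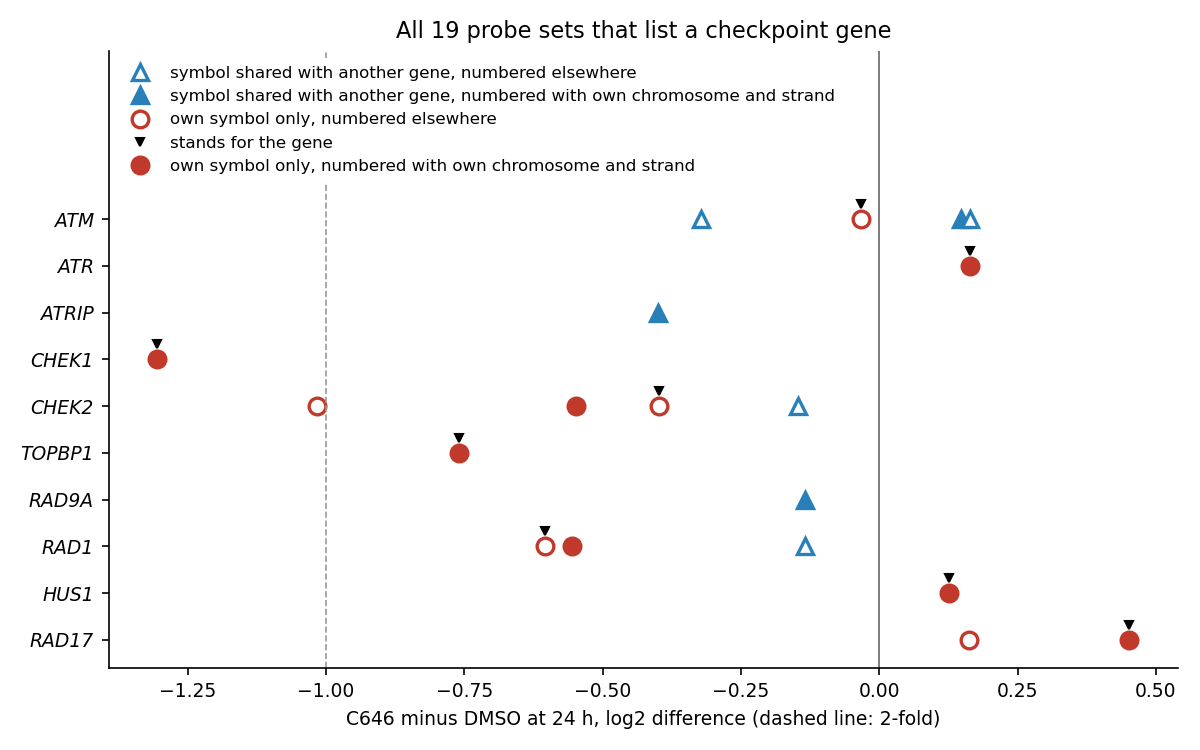
C646 minus DMSO at 24 h for all 19 probe sets that list a checkpoint gene, as circles where the symbol stands alone and triangles where another gene is listed too. Filled symbols are numbered among genes of the member's own chromosome and strand (for HUS1 its chromosome only), and the black mark shows which probe set stands for the gene. The 3 CHEK2 probe sets with the symbol alone range from -1.02 to -0.40 and the 2 of RAD1 lie at -0.60 and -0.56, while the sets shared with HSCB and with BRIX1 lie at -0.15 and -0.13.

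A spread between vehicle arrays was available by testing C646 at 24 h against the pair of DMSO arrays in limma, with Benjamini-Hochberg adjustment over 16579 probe sets. CHEK1 fell by 1.31 on the log2 scale (SE 0.091, limma adjusted p = 0.0051). TOPBP1 fell by 0.88 (SE 0.13, limma adjusted p = 0.025) and RAD1 by 0.57 (SE 0.095, limma adjusted p = 0.031). CHEK2 fell by 0.44 (SE 0.090, limma adjusted p = 0.046). So 4 of the 8 members fell, where 6.90% of all probe sets fell, and no member rose, where 6.68% of all probe sets rose.

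The remaining members did not pass. RAD17 had an estimate of 0.34 (95% interval 0.0032 to 0.68, limma adjusted p = 0.15), ATR 0.075 (-0.22 to 0.37, adjusted p = 0.69), HUS1 0.081 (-0.19 to 0.35, adjusted p = 0.62) and ATM -0.068 (-0.30 to 0.16, adjusted p = 0.63). The alternative probe sets of CHEK2 (3956433) and RAD1 (2852989), numbered with their own chromosome and strand, fell by 0.57 (limma adjusted p = 0.024) and 0.61 (limma adjusted p = 0.027). The shared ATRIP and TREX1 probe set fell by 0.42 (limma adjusted p = 0.048), and the shared RAD9A probe set was at -0.16 (limma adjusted p = 0.27). The ATM and NPAT probe set of the ATM strand (3347658) was at 0.12 (limma adjusted p = 0.43). The third CHEK2 probe set (3935862) did not pass at -0.80 (limma adjusted p = 0.065), nor did those shared by HSCB and CHEK2 at -0.18 (0.23) and by BRIX1 and RAD1 at -0.26 (0.27).

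That comparison has 1 residual degree of freedom, takes the lone C646 array to vary as the DMSO arrays did and does not separate time from treatment. Its median total degrees of freedom were 4.47, because limma also borrows variance from the other probe sets. The SE and p of a gene thus do not measure its own vehicle spread alone. The members were chosen with earlier results of these data known, so their counts beside the shares of all probe sets are a description. The CHEK2 call ended without a variance trend (limma adjusted p = 0.051), with quantile normalization (0.052) and without the level filter (0.079), and those of TOPBP1 (0.053) and RAD1 (0.061) ended without the filter.

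A second limma model took all 4 arrays, with terms for treatment and for time. It called 0 of 16579 probe sets (0.00%) and 0 of the 8 members, with 1828 probe sets and 1 member, CHEK1, at an unadjusted p under 0.05. CHEK1 had an estimate of -0.84 ± 0.26 (SE, limma adjusted p = 0.448), which averages a difference of -0.37 and a difference of -1.31. For TOPBP1 the estimate was -0.43 ± 0.20 (SE, limma adjusted p = 0.47) and for ATR 0.23 ± 0.10 (SE, limma adjusted p = 0.47). The error here is the disagreement between both times, not a spread of replicates.

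**Figure D4:**
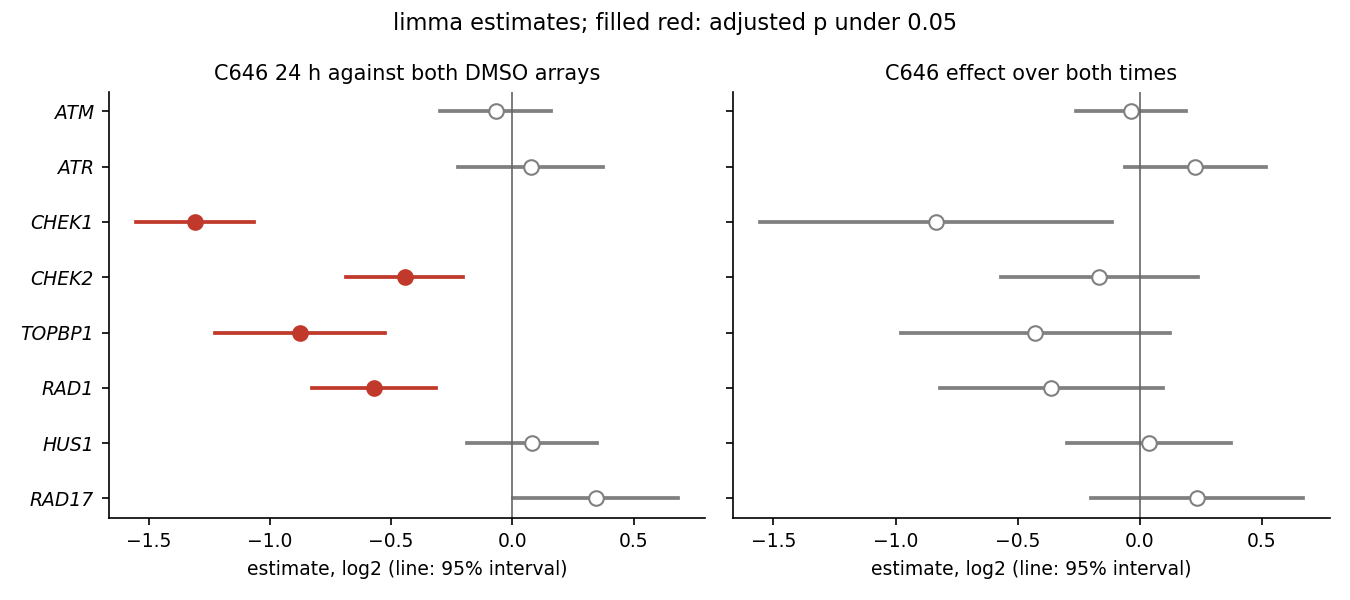
limma estimates with 95% intervals for the 8 genes on the log2 scale, for C646 at 24 h against the pair of DMSO arrays (left) and for the C646 effect over both times (right). On the left CHEK1, CHEK2, TOPBP1 and RAD1 are filled because their adjusted p is under 0.05, and on the right none is.

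Genes of proteins that work beside ATR were lower with C646 at 24 h. Of 14 listed partners 12 were measured, with a median difference of -0.14 at 6 h and -0.93 at 24 h. All 12 lay below 0 at 24 h, where 44.9% of all named genes did. In the comparison of the 24 h C646 array with both DMSO arrays 9 fell and 0 rose. Over all probe sets, 6.90% fell and 6.68% rose in that comparison. CLSPN, the mediator between ATR and CHEK1, read 3.87 with C646 and 6.71 with DMSO at 24 h, a difference of -2.84. The value with C646 lies under the level filter of 3.96, so the exact size of this difference is uncertain. TIMELESS, which protects forks, was at -1.51, and RPA2, a subunit of the single-strand binding complex, was at -1.37. The RFC subunits that load the clamp with RAD17 were at -1.40 for RFC2, -1.39 for RFC3 and -1.19 for RFC5, whereas RAD17 was at 0.45. RFC4, the remaining small subunit, which was named after its value was seen, was at -0.68. ETAA1, an ATR activator that acts apart from TOPBP1, was the highest of the list at -0.026.

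Among 10 listed partners of ATM, 9 were measured, with medians of -0.11 at 6 h and -0.56 at 24 h, and 5 fell and 0 rose in the same comparison. Over all probe sets, 6.90% fell and 6.68% rose in that comparison. H2AX, the histone variant that ATM phosphorylates at breaks, was at -1.36. BRCA1, a repair scaffold gene, was at -1.25, with a C646 value of 3.81 at 24 h, under the level filter, so that the size is uncertain. MDC1, which binds phosphorylated H2AX, was at -1.20. TP53BP1, a mediator at breaks, was the highest at 0.17. As H2AX is one of many similar histone genes, its value is uncertain.

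The kinases related to ATM and ATR and the cochaperones that stabilise them formed a list of 7, of which 5 were measured, with medians of -0.055 at 6 h and -0.19 at 24 h. PRKDC, the catalytic kinase of end joining, was the only one that fell (by 0.88 against both DMSO arrays, limma adjusted p = 0.013), with a difference from DMSO of the same time of -0.91, and MTOR was the highest at -0.13.

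Of 12 listed effectors and off switches of the checkpoint, 10 were measured, with medians of -0.098 at 6 h and -0.82 at 24 h. In the same comparison 6 fell and 1 rose. CDC25A, the phosphatase that CHEK1 marks for destruction, read 3.83 with C646 and 7.05 with DMSO at 24 h, a difference of -3.22. CDC25C, a phosphatase of the same family, was at -1.17 and read 3.51 with C646. Both C646 values lie under the level filter, so the exact sizes are uncertain. The CDK1-inhibiting kinase gene PKMYT1 was at -1.50, and PLK1, the mitotic kinase that ends the checkpoint, was at -1.66. MDM2, the p53 ubiquitin ligase gene, was at 1.48 and was the gene that rose. Over the 4 pathway lists together, 21 of 36 measured genes fell and 1 rose, beside 6.90% and 6.68% of all probe sets. At 24 h 13 were at least 2-fold lower, beside 2.88% of all named genes. The lists were chosen with earlier results of these data known, so these counts are a description.

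**Figure D5:**
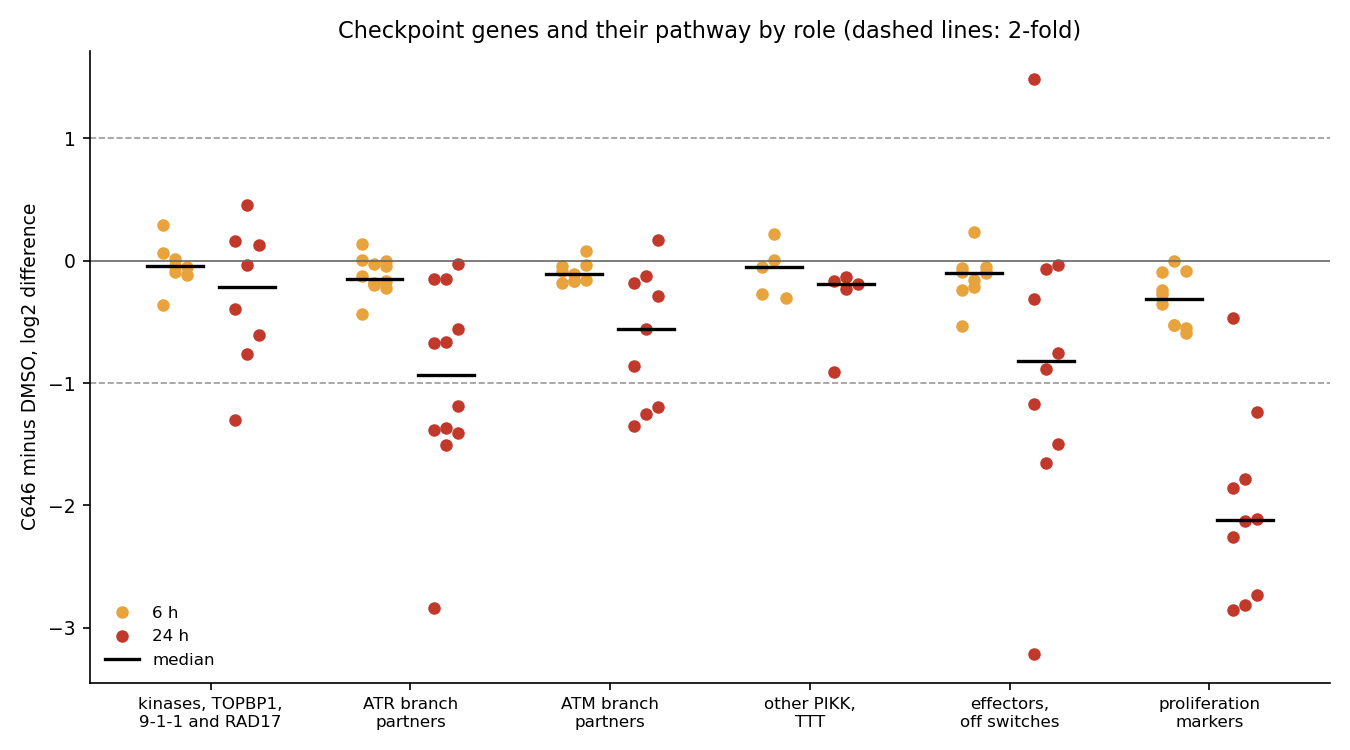
C646 minus DMSO log2 differences by role, with 6 h in yellow, 24 h in red and the median as a black bar. The checkpoint genes themselves have a median of -0.22 at 24 h, the ATR branch partners -0.93 and the proliferation markers -2.12.

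Markers of dividing cells moved with CHEK1 and its partners. All 10 listed proliferation markers were measured and all 10 fell in the comparison with both DMSO arrays, with differences at 24 h between -2.86 for CCNA2 and -0.47 for PCNA. In that comparison 6.90% of all probe sets fell. The PCNA probe set (4006656) is numbered among those of another chromosome, so its value for the gene is uncertain. Their median level was 7.75 with C646 and 8.09 with DMSO at 6 h, and 5.61 with C646 and 7.84 with DMSO at 24 h. Their part in the result for the checkpoint genes was not tested. By distance over the 3 log2 differences from DMSO at 6 h, the named genes nearest to CHEK1 were PARPBP (0.092), SCML2 (0.10) and DIAPH3 (0.11). At 24 h their C646 minus DMSO differences were -1.31, -1.22 and -1.17. That these lie near the CHEK1 value follows from the choice, since the distance uses the same arrays.

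The labelled melanoma line showed melanocyte markers, with 6 of 8 measured. PMEL, a melanosome structural protein gene, read between 10.7 and 11.0 on the 4 arrays and was the lowest of the list by difference at 24 h (0.078), and S100B was the highest of the list by difference at 24 h (1.49). Of the keratinocyte, fibroblast, leukocyte and endothelial lists, 2 of 7, 2 of 7, 1 of 7 and 1 of 5 genes were measured above the level filter. Their differences at 24 h were 0.16 for KRT10, 0.12 for IVL, 0.0031 for COL1A1, -0.21 for LUM, 0.058 for CD68 and 0.68 for KDR, and none passed the test. On the 4 arrays KDR read between 7.66 and 8.65, CD68 between 7.62 and 7.77 and KRT10 between 5.82 and 5.99. LUM read between 5.55 and 5.92, IVL between 4.52 and 4.65 and COL1A1 between 4.02 and 4.08. Over all probe sets, correlations that involved C646 at 24 h were 0.975 to 0.979, and those between the remaining arrays were 0.991 to 0.996.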

How the data were processed

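The authors deposited 1 table of log2 values, with 27631 gene-level probe sets as rows and 4 arrays as columns. Labelling used 100 ng of total RNA, per the labels' protocols. That the scale is log2 was inferred from the values, whose array medians were 4.39 to 4.41. How the arrays were summarised and normalised is not stated in the labels. The build hg19 is named in the submitters' processing notes. With arrays, their number limits the precision, and p-values carry no replicate spread.

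By the platform annotation 20429 probe sets had 1 symbol, 4232 had several and 2970 had none. Symbols were updated by Entrez ID from the GRCh38.p14 gene table (20362 matched). Probe sets with a mean at or above the 40th percentile (3.96) were kept, leaving 16579 and 10707 named genes. A probe set was placed by the most common chromosome of its 20 nearest placed neighbours by number on each side, and its strand by theirs. Of placed probe sets 7.53% were numbered among another chromosome.

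Tests used limma 3.58.1 in R 4.3.3 with a variance trend and Benjamini-Hochberg adjustment at 0.05, checked on simulated data; other steps used pandas 2.3.3. The members and lists were chosen with earlier results of these data known. All 10 members were named, plus from each pathway list every measured gene at least 2-fold different and its highest and lowest at 24 h, from each marker list the highest and lowest, and the 3 genes nearest to CHEK1. The gene lists held the p53 gene, which was not analysed here. Alternatives were the choice of probe set, normalization, vehicle baseline, filter, fold and variance prior.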

Additional observations from a re-analysis of the deposited data

Results flagged for a closer look

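For some genes named in the text the C646 minus DMSO difference pointed in opposite directions at 6 h and 24 h. With 1 array per condition this difference between the times was not tested. Among the checkpoint genes, CHEK2 was at 0.067 at 6 h and -0.40 at 24 h, a change of -0.47, but the CHEK2 probe set numbered with its own chromosome and strand (3956433) was below 0 at both times, at -0.085 and -0.55. HUS1 was at -0.050 and 0.13, a change of 0.18. Among their partners, RFC5 was at 0.00078 and -1.19 (change -1.19), MDC1 at 0.076 and -1.20 (change -1.27), TP53BP1 at -0.032 and 0.17 (change 0.20), MTOR at 0.22 and -0.13 (change -0.35) and MDM2 at -0.092 and 1.48 (change 1.57). Among markers of other cell types, IVL changed by 0.13, KRT10 by 0.25 and COL1A1 by 0.026. Over named genes the SD of DMSO at 24 h minus DMSO at 6 h was 0.16. The 6 h differences of CHEK2, HUS1, RFC5, MDC1, TP53BP1, MDM2, IVL, KRT10 and COL1A1 were smaller in size than that SD. So were the 24 h differences of HUS1, MTOR, IVL and COL1A1.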

How the results depend on the processing

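With probe sets numbered among each gene's own chromosome, which leaves out ATM, the members' median at 24 h was -0.55 and the median of the 24 h minus the 6 h difference was -0.46. The gap between CHEK1 with CHEK2 and ATM with ATR was then -0.51 at 6 h and -1.09 at 24 h, and -1.08 at 24 h with shared probe sets of the own chromosome and strand, an alternative chosen after seeing the data. A 1.5-fold limit counted 3 of the 8 members at 24 h, against 1 at 2-fold. Of 10707 named genes it counted 197 at 6 h, 1089 at 24 h and 82 between the DMSO arrays. At 2-fold these counts were 22, 412 and 12. Without the level filter limma called 1273 probe sets in the 24 h comparison with the DMSO pair, against 2252, and 1 member, CHEK1. That comparison tested 27631 probe sets without the filter and 16579 with it, and 8 members in both. CHEK1 stayed past 2-fold lower at 24 h under each normalization and baseline tried. Only probe set 3354799 lists CHEK1, so the choice of probe set could not change its value. The other 57 alternative values of summary results moved by less than the spread of the DMSO arrays or less than 1.5 times, and under the filter, trend and normalization alternatives no limma estimate of a member changed sign. Between probe sets ATM did, with -0.068 on the one of its own symbol and 0.12 on 3347658, shared with NPAT. Probe set 3390067, also shared with NPAT but numbered on the strand of NPAT, had an estimate of -0.33. A separate C646 effect for 24 h was not fitted in the model over both times, as that would leave no residual degree of freedom. The labels give 1 array per group and no replicate numbers, so replicates could not be paired. The model over both times holds time as a term and so compares C646 with DMSO within each time. With 1 array per group no replicate could be left out within a group.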
